A study of Mus musculus with 4 samples.

Results

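The promoters of Irs1, Pcdh7 and Efna5 were examined in H3K4me3-specific HiChIP-seq of MLg cells, a mouse lung fibroblast line. These 3 of 8242 active coding promoters (of 21755 coding promoters in the annotation) were chosen by measured values, as those with the smallest p for fewer long-range contacts in the TGFB1 library than in the Ctrl library. Values of that contrast are therefore given as a description, without a test. HiChIP joins DNA pieces that lie close to each other in the nucleus and precipitates those that carry a histone mark, so that contacts of places that carry the mark are enriched among the pairs of reads. H3K4me3, the trimethylation of lysine 4 of histone H3, marks the start sites of genes in use.

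There were 4 libraries, 1 for each condition, without replicates. MLg cells were transfected with antagomiR at 60 nM and harvested after 24 h. The Ctrl library came from cells without TGFB1, the TGFB1 library from cells that received TGFB1 at 5 ng/ml for the last 4 h, the TGFB1+miR-9-LOF library from cells that received both TGFB1 and the antagomiR against miR-9, and the miR-9-LOF library from cells with that antagomiR alone. The study's text gives the Ctrl and TGFB1 cells a control antagomiR, which the sample labels do not name. An antagomiR blocks a microRNA, and the loss of function is that of the microRNA and not of its genes.

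The 3 genes act at the cell surface or just below it. Irs1 encodes insulin receptor substrate 1, the adaptor that insulin and IGF1 receptors phosphorylate and that passes their signal to PI3K. Pcdh7 encodes a non-clustered protocadherin, a cadherin-like adhesion protein of the plasma membrane. Efna5 encodes ephrin-A5, a membrane-anchored ligand that binds Eph receptors on neighbouring cells. TGFB1 is the cytokine best known in lung fibroblasts for driving matrix production and the change to myofibroblasts.

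A contact was a pair 20 kb to 2 Mb apart on 1 chromosome with an end within 10 kb of the transcription start site (TSS), taken as the 5′ end of the GENCODE gene model on GRCm38 (mm10). A promoter was called active when its TSS lay within 2 kb of a region enriched in pair ends over the 4 libraries together. Irs1 lies on the minus strand at chr1:82233101-82291416, Pcdh7 on the plus strand at chr5:57717967-58133230 and Efna5 on the minus strand at chr17:62604184-62881317. Each TSS lay in or beside an enriched region, at chr1:82290001-82292000, within chr5:57716001-57721000 and at chr17:62880001-62884000. Enriched bins of 1 kb covered 3 kb within 10 kb of the Irs1 TSS, 5 kb at Pcdh7 and 4 kb at Efna5, against a median of 1 kb over active promoters, so that all 3 exceeded the median. A smaller extent was found at 89.3%, 99.7% and 98.4% of active promoters, in that order.

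The DNA just before each start site and the microRNA that was blocked are shown because G-quadruplexes and miR-9 are the subject of the study. A G-quadruplex is a four-stranded structure that runs of guanine can form. The promoter sequences are those of RefSeq on GRCm38, read 5′ to 3′ on the strand of the gene and ending before the start site of both RefSeq and GENCODE. They cover chr1:82291440-82291689 (minus strand), chr5:57717831-57717966 (plus strand) and chr17:62881318-62881567 (minus strand). Capitals mark a G-quadruplex pattern, 4 runs of at least 3 G with 1 to 7 bases between them, on either strand. In miR-9-5p, capitals mark the seed, bases 2 to 8. It is made from 3 genes, and its mature stretch lies at chr3:88215613-88215635 in Mir9-1, chr13:83738821-83738843 in Mir9-2 and chr7:79505279-79505301 in Mir9-3.
Irs1 promoter: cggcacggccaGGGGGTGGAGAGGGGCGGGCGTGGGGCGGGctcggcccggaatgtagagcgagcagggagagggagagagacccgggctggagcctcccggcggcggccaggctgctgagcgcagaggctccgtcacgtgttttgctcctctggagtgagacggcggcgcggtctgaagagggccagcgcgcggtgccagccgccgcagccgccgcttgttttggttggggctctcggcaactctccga
Pcdh7 promoter: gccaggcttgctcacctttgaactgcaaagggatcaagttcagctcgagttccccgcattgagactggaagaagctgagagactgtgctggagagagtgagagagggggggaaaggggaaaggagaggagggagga
Efna5 promoter: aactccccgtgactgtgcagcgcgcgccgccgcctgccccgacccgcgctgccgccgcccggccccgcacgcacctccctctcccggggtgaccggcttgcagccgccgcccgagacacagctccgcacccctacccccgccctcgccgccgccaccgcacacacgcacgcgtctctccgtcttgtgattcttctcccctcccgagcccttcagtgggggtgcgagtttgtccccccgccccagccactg
miR-9-5p: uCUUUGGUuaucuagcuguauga

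The G-quadruplex pattern lay in the printed bases of Irs1 and in none of those of Pcdh7 and Efna5. Over the whole RefSeq window, 250 bases before to 50 bases after the start site, it was found on the gene strand at Irs1 and Pcdh7 and on neither strand at Efna5. Of the 8242 active promoters 6597 had such a window, and 28.1% of these held the pattern. The 7 bases that pair with the miR-9-5p seed, ACCAAAG, were in none of the 3 windows on either strand and in 3.17% of the windows of active promoters. CAGAC, the short element that SMAD proteins bind, occurred once, on the other strand at Irs1, and in 46.1% of the windows of active promoters. TGACTCA and TGAGTCA, the AP-1 elements, were in none of the 3 windows and in 2.85% of those of active promoters. The 300 bases held 71.3% G and C at Irs1, 59.3% at Pcdh7 and 73.3% at Efna5, against a median of 62.0%. At Pcdh7 the annotated transcript start with the most pair ends lay 2156 bases farther into the gene. The sequence around that start was not searched.

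The libraries held 10864558 to 15568047 valid pairs, of which 4793354 to 6692306 were 20 kb to 2 Mb apart, and any pair of them shared at most 0.0350% of the smaller one. They differed in enrichment. The share of pair ends in the 8658 enriched regions was 9.70% in Ctrl, 6.99% in TGFB1, 4.09% in miR-9-LOF with TGFB1 and 4.74% with miR-9-LOF alone, and the median active promoter had 44.7, 36.9, 29.1 and 30.8 contacts per 1000000 pairs 20 kb to 2 Mb apart. Ratios are therefore given relative to the median active promoter unless stated otherwise. The part of the enrichment in the results was not tested beyond the other scalings given below. Intervals are exact 95% intervals that cover counting error only, and any comparison is one of libraries, not of conditions. Of the listed fibroblast markers, 7 of 14 had an active promoter, while Col1a2, Col3a1, Thy1, Fn1, Dcn, Lum and Tcf21 did not. None of the 5 epithelial, 4 endothelial and 4 immune markers had one. The median contacts of the fibroblast list were 0.694 to 0.832 times those of the median active promoter over the libraries, those of the epithelial list 0.367 to 0.714 times, of the endothelial list 0.272 to 0.589 times and of the immune list 0.296 to 0.620 times, each of the last 3 lowest in Ctrl and highest in TGFB1+miR-9-LOF. Their part in the results was not tested.

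The Irs1 promoter had 1104 contacts in Ctrl, 484 in TGFB1, 394 in miR-9-LOF with TGFB1 and 458 with miR-9-LOF alone. The levels were 165.0, 100.97, 66.2 and 69.5 per 1000000 pairs. Ctrl was the highest, TGFB1 followed, and the intervals of the 2 miR-9-LOF libraries overlapped. In Ctrl the count was 3.69 times the median and the 15th highest of all active promoters, and in the other libraries 2.73, 2.28 and 2.26 times the median.

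The Pcdh7 promoter had 1005, 436, 381 and 444 contacts in the same order, which was 150.2, 91.0, 64.01 and 67.4 per 1000000 pairs. Its order of libraries was that of Irs1, with overlapping intervals only between the 2 miR-9-LOF libraries. It stood 38th in Ctrl at 3.36 times the median, and at 2.19 to 2.46 times the median elsewhere.

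The Efna5 promoter had 867, 370, 389 and 434 contacts, or 129.6, 77.2, 65.4 and 65.8 per 1000000 pairs. Here the interval of TGFB1, 69.5 to 85.5 per 1000000 pairs, overlapped those of both miR-9-LOF libraries, and Ctrl alone stood apart. Efna5 was the 108th in Ctrl at 2.90 times the median, and had 2.09 to 2.25 times the median in the other 3 libraries.

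**Figure D1:**
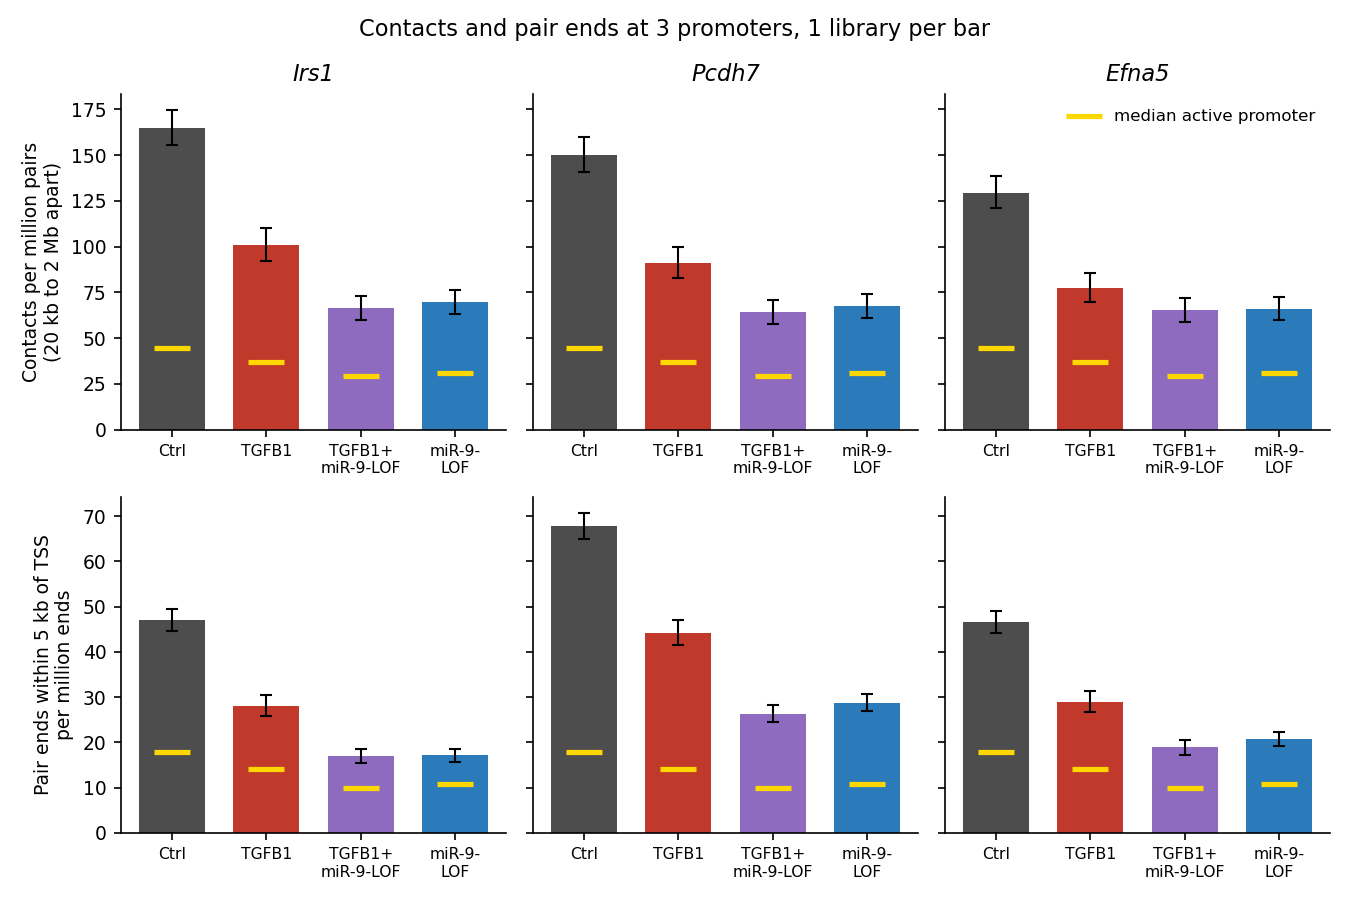
Contacts per 1000000 pairs 20 kb to 2 Mb apart (top) and pair ends within 5 kb of the TSS per 1000000 ends (bottom) at Irs1, Pcdh7 and Efna5. Each bar is 1 library with its exact Poisson 95% interval, and the yellow mark is the median active promoter of that library. All 3 promoters are highest in Ctrl in both measures, and the median promoter is also highest there.

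The contrast that chose the promoters, TGFB1 against Ctrl, had log2 ratios, per 1000000 pairs, of -0.71 for Irs1, -0.72 for Pcdh7 and -0.75 for Efna5, where the median active promoter had -0.29. Relative to that median the log2 ratio was -0.42 (-0.57 to -0.26) at Irs1, -0.43 (-0.60 to -0.27) at Pcdh7 and -0.45 (-0.63 to -0.28) at Efna5. TGFB1 thus had 0.750, 0.742 and 0.730 times the contacts of Ctrl after this scaling. The whole interval lay below the median for 5.39% of active promoters, a group the 3 belong to by choice. In a bulk library, fewer cells with a contact and a rarer contact in every cell cannot be told apart.

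The choice favoured promoters with many contacts, since a given ratio is measured best there. A lower log2 ratio than theirs was found at 51, 44 and 30 active promoters, all with less evidence. The next in order of p against the library total were Tnrc18 (1008 contacts in Ctrl and 478 in TGFB1, log2 -0.30), Chchd1 (660 and 282, -0.45), Pmepa1 (755 and 340, -0.38), Cdc42ep2 (758 and 343, -0.37) and Rbms1 (678 and 298, -0.41). Tnrc18 had a smaller difference, and the other 4 had ratios of a like size with fewer contacts than any of the 3. Pmepa1, a TGFB1 target gene that restrains SMAD signalling, was among them.

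Scaling to another reference changed the size and not the direction in this contrast, on which the promoters were chosen. Relative to the pairs that had an end in an enriched region, the log2 ratios were -0.22 at Irs1, -0.24 at Pcdh7 and -0.26 at Efna5. Active promoters with at least 800 contacts in the 2 miR-9-LOF libraries together, 259 including these 3, had a median of -0.09, and 203 of the 259 were below the median of all. Promoters with at least 4 kb of enriched bins, 131 including Pcdh7 and Efna5, had a median of -0.11. Between the 2 miR-9-LOF libraries the same groups had medians of -0.10 and -0.10. Strong and broad promoters thus had lower medians than all active promoters in both contrasts. The strong group was defined by the 2 miR-9-LOF libraries and the broad one by the 4 libraries pooled. These groups thus share libraries with the contrasts, and their medians are a description. Promoters with partners a median of at least 300 kb away, 434 including all 3, had a median of 0.0045 for TGFB1 against Ctrl and 0.03 between the 2 miR-9-LOF libraries, and those with at least 75% of their contacts on 1 side, 228 including all 3, had -0.04 and 0.03.

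Pair ends within 5 kb of the TSS, a measure of H3K4me3 signal that also counts short pairs, were lower in TGFB1 at all 3 promoters. Irs1 had 1444 ends in Ctrl, 609 in TGFB1, 478 in miR-9-LOF with TGFB1 and 532 with miR-9-LOF alone, and its log2 ratio of TGFB1 to Ctrl was -0.39 (-0.53 to -0.25). Pcdh7 had 2080, 961, 742 and 893 ends and a log2 ratio of -0.26 (-0.37 to -0.15). Efna5 had 1429, 628, 532 and 644 ends and a log2 ratio of -0.33 (-0.47 to -0.20). The whole interval lay below the median for 8.18% of active promoters. Ends and contacts come from the same pairs and are not independent of each other or of the choice. Counted within 1 kb of the TSS, the log2 ratio was -0.22 (-0.42 to -0.02) at Irs1, -0.30 (-0.58 to -0.03) at Pcdh7 and -0.15 (-0.38 to 0.07) at Efna5, whose interval then includes 0.

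**Figure D2:**
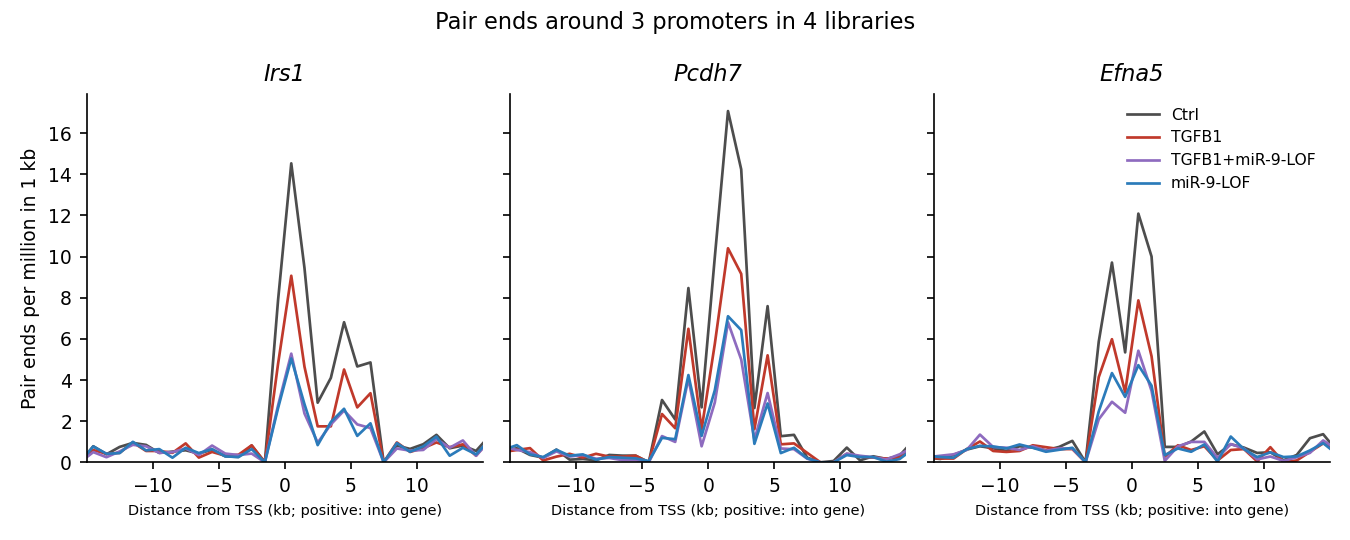
Pair ends per 1000000 ends in 1-kb steps from 15 kb before to 15 kb after the TSS of Irs1, Pcdh7 and Efna5, with positive distances into the gene and 1 line for each library. Ctrl is the highest line at the peaks of all 3 promoters and the 2 miR-9-LOF libraries are the lowest.

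The 2 miR-9-LOF libraries, with and without TGFB1, were not used in the choice and allowed a test of the same treatment with miR-9 blocked. No difference was detected at any of the 3 promoters. The log2 ratio of contacts was 0.01 at Irs1 (-0.18 to 0.21, exact binomial p = 0.891, adjusted p = 1.00), with 394 contacts against 458. It was 0.01 at Pcdh7 (-0.19 to 0.21, exact binomial p = 0.944, adjusted p = 1.00) and 0.07 at Efna5 (-0.13 to 0.27, exact binomial p = 0.484, adjusted p = 0.897). With the 3 promoters summed, 1164 contacts stood against 1336 and the log2 ratio was 0.03 (-0.08 to 0.15). The same test called 0.0364% of active promoters at an adjusted p under 0.05, a share that depends on the scaling, as given at the end.

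Pair ends gave the same picture in these 2 libraries. The log2 ratio was 0.12 at Irs1 (-0.06 to 0.30, exact binomial p = 0.195, adjusted p = 0.594), 0.01 at Pcdh7 (-0.14 to 0.15, exact binomial p = 0.941, adjusted p = 0.989) and 0.00 at Efna5 (-0.17 to 0.17, exact binomial p = 1.00, adjusted p = 1.00). Of all active promoters 1.65% were called, a share that also depends on the scaling, as given at the end. Counted within 1 kb of the TSS, Irs1 had 0.29 (0.02 to 0.56, exact binomial p = 0.0317, adjusted p = 0.336). Whether the ratios with and without miR-9-LOF differ was not tested, since the members were chosen on the ratio without it.

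**Figure D3:**
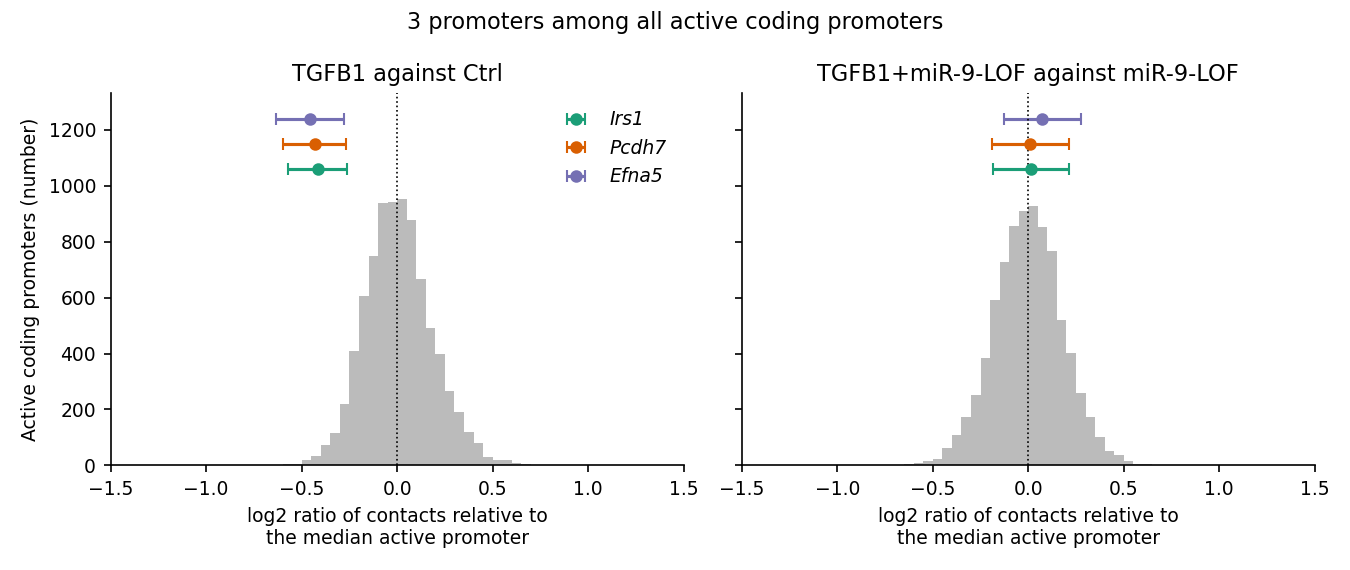
Number of active coding promoters by log2 ratio of contacts relative to the median promoter, for TGFB1 against Ctrl (left) and TGFB1+miR-9-LOF against miR-9-LOF (right), with the 3 promoters and their exact 95% intervals drawn above the bars. The 3 promoters lie between -0.42 and -0.45 on the left, where they were chosen, and between 0.01 and 0.07 on the right.

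The other 2 contrasts each share a library with the one that chose the promoters and are given as values only. For miR-9-LOF against Ctrl the log2 ratio of contacts was -0.69 (-0.85 to -0.53) at Irs1, -0.60 (-0.76 to -0.44) at Pcdh7 and -0.42 (-0.59 to -0.25) at Efna5, and 12.6% of active promoters had their whole interval below the median. At Irs1 only 4 active promoters had a lower ratio. For TGFB1+miR-9-LOF against TGFB1 it was -0.26 (-0.45 to -0.06) at Irs1, -0.16 (-0.36 to 0.05) at Pcdh7 and 0.11 (-0.10 to 0.32) at Efna5, with 6.87% of active promoters below. Relative to the median promoter, TGFB1 thus stood close to both miR-9-LOF libraries at Efna5 and between them and Ctrl at Irs1.

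Pcdh7 and Efna5 lie among few other genes. Pcdh7 had no other coding TSS within 2 Mb, and its nearest one, Stim2, was 3719 kb away. Efna5 had 6 within 2 Mb, the nearest being Fbxl17 at 618.7 kb, and Irs1 had 27, the nearest being Rhbdd1 at 25.04 kb. The median active promoter had 48 coding TSS within 2 Mb and the nearest at 18.5 kb. The genes are long, with 58.3 kb for Irs1, 415 kb for Pcdh7 and 277 kb for Efna5 against a median of 24.996 kb.

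Their contacts reached far and to 1 side, which the choice did not use. In the 2 miR-9-LOF libraries together, 78.1% of the Irs1 contacts, 93.8% of the Pcdh7 contacts and 77.8% of the Efna5 contacts lay downstream, on the side of the gene body. Of 7610 active promoters with at least 200 contacts in these libraries, 98.3%, 99.9% and 98.2% were less one-sided, and the median promoter had 57.2% of its contacts on its richer side. The median partner lay 348 kb away at Irs1, 311 kb at Pcdh7 and 346 kb at Efna5, against 149.9 kb at the median promoter.

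The side of the contacts was much the same in every library. Downstream partners made up 79.2% of the Irs1 contacts in Ctrl, 79.96% in TGFB1, 76.9% in miR-9-LOF with TGFB1 and 79.0% with miR-9-LOF alone. For Pcdh7 the shares were 94.4%, 94.95%, 93.4% and 94.1%. For Efna5 they were 83.4% (exact 95% interval 80.7% to 85.8%), 79.7% (75.3% to 83.7%), 79.7% and 76.0% (71.7% to 80.0%). The intervals overlap at Irs1 and Pcdh7, and at Efna5 that of Ctrl lies above that of miR-9-LOF.

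The contacts of Irs1 and Pcdh7 ended abruptly, a pattern picked out after the profiles were seen. From 900 to 1000 kb downstream of Irs1 there were 72 contacts in Ctrl, 29 in TGFB1, 32 in miR-9-LOF with TGFB1 and 40 with miR-9-LOF alone, and from 1000 to 1100 kb only 9, 3, 4 and 3. For Pcdh7 the counts from 1100 to 1200 kb were 28, 13, 10 and 19 and from 1200 to 1300 kb 5, 3, 3 and 4. At its TSS there were 12, 3, 3 and 6 contacts with a partner within 50 kb upstream against 91, 46, 24 and 36 within 50 kb downstream. Each of these drops was present in all 4 libraries at this window size, and finer positions were not compared. Efna5 had no such step between 900 and 1300 kb, with 21, 10, 17 and 11 contacts in the first 100 kb of that span and 14, 4, 4 and 4 in the last. A step of Efna5 between 100 and 900 kb was not looked for.

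**Figure D4:**
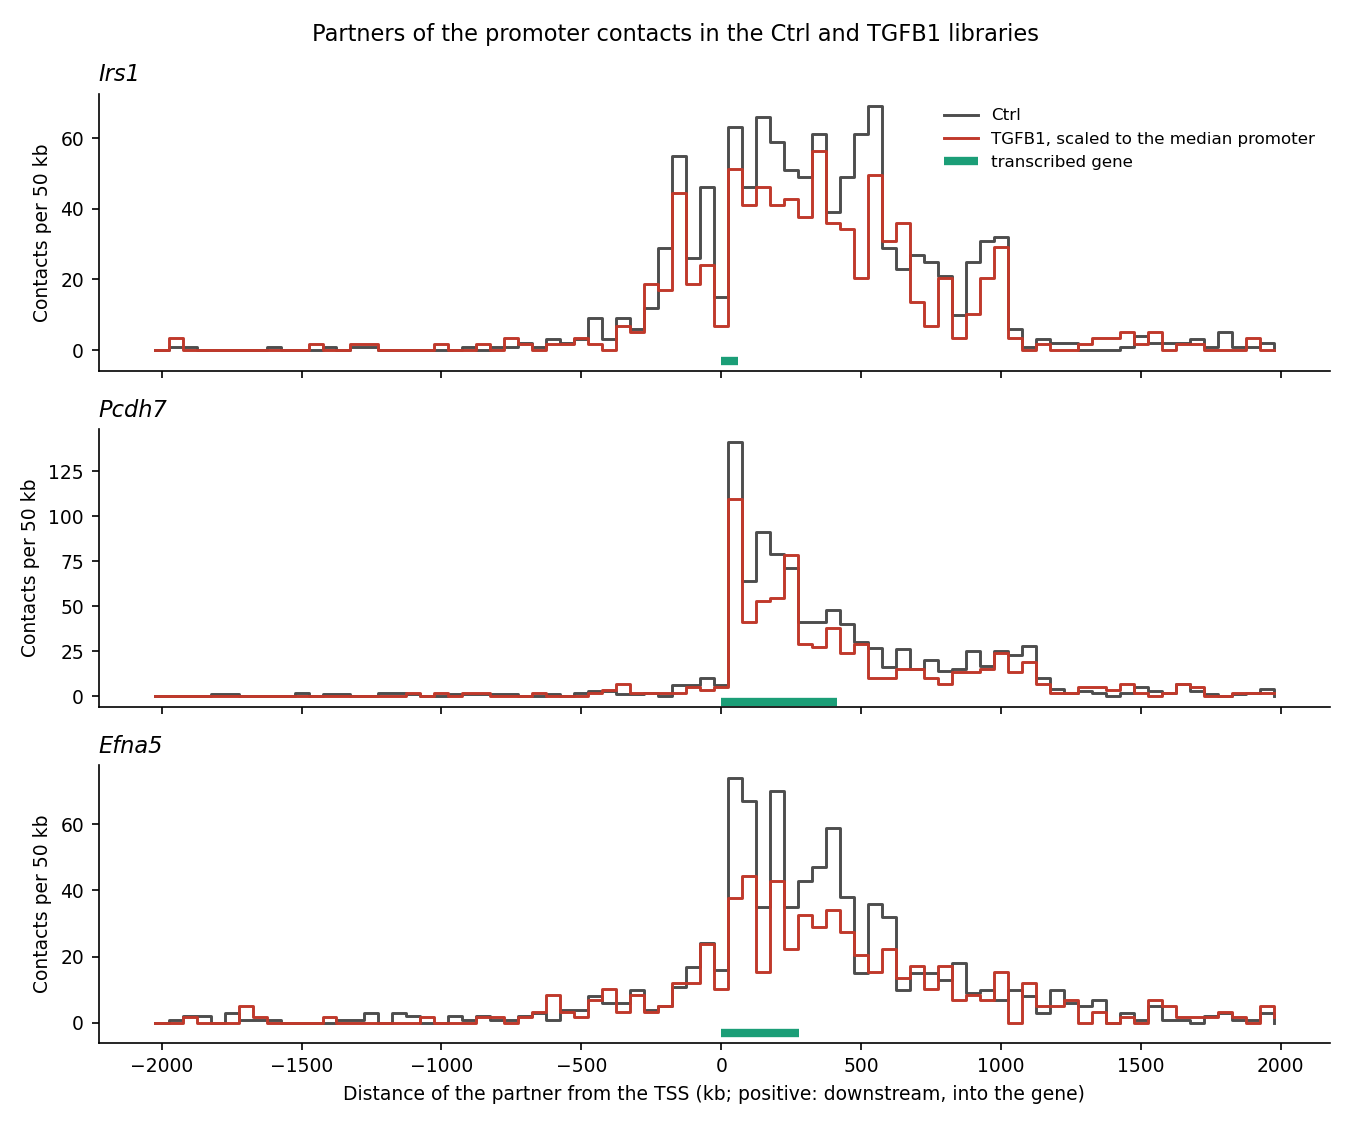
Contacts of Irs1, Pcdh7 and Efna5 per 50 kb of distance between partner and TSS, in Ctrl (grey) and in TGFB1 scaled to the median promoter (red), with the gene drawn in green. The contacts lie mostly downstream, stop near 1000 kb at Irs1 and near 1200 kb at Pcdh7, and the red line runs below the grey one over most of their span.

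The shortfall, the Ctrl contacts less the scaled TGFB1 contacts, came to 276 contacts at Irs1, 260 at Pcdh7 and 234 at Efna5, and was divided among the partners. At Irs1 its shares by distance were near those of the contacts. Partners under 100 kb away made up 14.5% of the Ctrl contacts and 13.3% of the shortfall, those at 100 to 500 kb 51.6% and 54.7%, and those beyond 500 kb 33.9% and 32.0%. The log2 ratios of the 3 classes were -0.38 (-0.80 to 0.03), -0.44 (-0.67 to -0.23) and -0.39 (-0.66 to -0.12). The downstream side of Irs1 held 79.2% of the Ctrl contacts and 76.8% of the shortfall.

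At Pcdh7 the shortfall was spread as evenly. The 3 distance classes held 19.3%, 48.1% and 32.6% of the Ctrl contacts and 20.1%, 44.5% and 35.5% of the shortfall, with log2 ratios of -0.45, -0.39 and -0.48. Partners within the Pcdh7 gene itself were 577 in Ctrl, 254 in TGFB1, 212 in miR-9-LOF with TGFB1 and 240 with miR-9-LOF alone. They made up 57.4% of the Ctrl contacts and 55.0% of the shortfall, and their log2 ratio of -0.41 (-0.63 to -0.19) was near that of the partners outside the gene, -0.46 (-0.72 to -0.21).

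At Efna5 the shortfall leaned to the gene. Partners within Efna5 were 295 in Ctrl, 99 in TGFB1, 118 in miR-9-LOF with TGFB1 and 131 with miR-9-LOF alone. They were 34.0% of the Ctrl contacts and 53.6% of the shortfall, with a log2 ratio of -0.80 (-1.14 to -0.47), while partners outside the gene and outside H3K4me3 regions had -0.32 (-0.53 to -0.11), and these intervals overlap. By distance the log2 ratio was -0.69 (-1.14 to -0.25) under 100 kb, -0.55 (-0.82 to -0.29) at 100 to 500 kb and -0.21 (-0.51 to 0.08) beyond. By side it was -0.52 (-0.72 to -0.32) downstream and -0.17 (-0.59 to 0.25) upstream. With miR-9 blocked, the partners within Efna5 had a log2 ratio of 0.08 (-0.29 to 0.45).

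**Figure D5:**
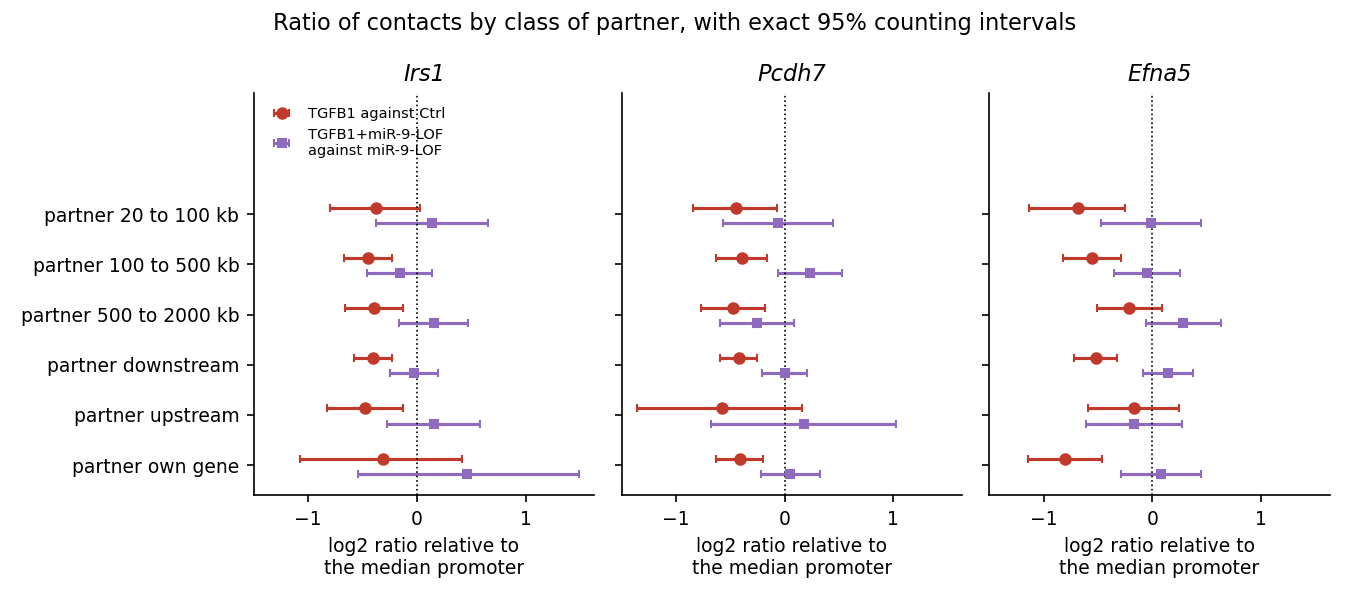
Log2 ratio of contacts relative to the median promoter by class of partner, for TGFB1 against Ctrl (red circles) and TGFB1+miR-9-LOF against miR-9-LOF (purple squares), with exact 95% intervals. The red values of Irs1 range from -0.47 to -0.31 and those of Pcdh7 from -0.57 to -0.39 with overlapping intervals, those of Efna5 range from -0.80 in the gene to -0.17 upstream, and every purple interval includes 0.

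Few of the partners carried H3K4me3 regions of their own. Bins of 10 kb with an enriched region took 20.4% of the contacts of all active promoters in Ctrl, but 23 of 1104 contacts (2.08%) at Irs1, 1 of 867 at Efna5 and 0 of 1005 at Pcdh7. At Irs1 these 23 stood against 4 in TGFB1, 7 in miR-9-LOF with TGFB1 and 9 with miR-9-LOF alone, a log2 ratio of -1.75 for TGFB1 with a wide interval (-3.74 to -0.20). They were 5.85% of the shortfall. Enriched regions were scarce around these promoters. Within 2 Mb, apart from those at the TSS itself, there were 7 at Irs1, 1 at Pcdh7 and 5 at Efna5. The 1 at Pcdh7 lay within 10 kb of its TSS, where hardly any partner 20 kb or more away can fall. The 0 at Pcdh7 was thus all but fixed in advance. At Irs1 the enriched bins within 10 kb covered 3 kb, of which the region at the TSS covered 2 kb. The part of the scarcity in the low counts at Irs1 and Efna5 was not tested.

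No single partner bin accounted for much of the shortfall. Contacts in Ctrl fell on 182 bins at Irs1, 187 at Pcdh7 and 213 at Efna5, with a median of 5, 3 and 2 in a bin. Over all bins, 141, 142 and 152 were lower in scaled TGFB1, by 413, 403 and 391 contacts in sum, and 65, 72 and 92 were higher, by 137, 144 and 157. This balance follows from the choice of the promoters and is a description. The 5 bins with the largest shortfall held 20.2% of it at Irs1, 27.7% at Pcdh7 and 28.3% at Efna5. At Irs1 they lay 266 to 516 kb downstream, where no coding gene is annotated, and held 73 contacts in Ctrl, 10 in TGFB1, 13 in miR-9-LOF with TGFB1 and 15 with miR-9-LOF alone. The first was chr1:81770001-81780000, with 14, 1, 4 and 1 contacts. At Pcdh7 the 5 bins held 118, 27, 23 and 28 contacts, led by chr5:57840001-57850000 inside the gene with 23, 4, 3 and 9. At Efna5 they held 92, 15, 34 and 40, led by chr17:62840001-62850000 inside the gene, 36.3 kb from the TSS, with 17, 1, 8 and 5. The bins were picked for this contrast. Between the 2 libraries that played no part in picking them, their log2 ratios were 0.02 (-1.17 to 1.20), -0.05 (-0.91 to 0.80) and 0.00 (-0.71 to 0.69).

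Bins were also ranked by the 2 miR-9-LOF libraries alone, and the strongest ones, which together held 50% of those contacts, were set against the rest. At Irs1 the 40 strong bins held 42.8% of the Ctrl contacts and 27.2% of the shortfall, and had a log2 ratio of TGFB1 to Ctrl of -0.25 (-0.48 to -0.02) and the other bins -0.55 (-0.77 to -0.34). At Pcdh7 the values were -0.42 (-0.66 to -0.19) for 31 strong bins and -0.44 (-0.67 to -0.21) for the rest. At Efna5 the order was the other way, with -0.62 (-0.90 to -0.35) for 42 strong bins and -0.32 (-0.56 to -0.08) for the rest. With these bins of 10 kb the intervals overlap at all 3 promoters, and the gap moved with the bin size. Bins of 5 kb and of 25 kb were run at each promoter, and only 1 of these sizes is given here for each. Strong and other bins had -0.34 and -0.47 at Irs1 with bins of 5 kb, -0.35 and -0.52 at Pcdh7 with bins of 25 kb, and -0.78 (-1.09 to -0.48) and -0.26 (-0.48 to -0.04) at Efna5 with bins of 5 kb, where the intervals do not overlap. Beyond 100 kb the bin with the most contacts over the 4 libraries was chr5:57940001-57950000 inside Pcdh7, 227 kb from its TSS, with 42, 28, 16 and 19 contacts. The leading far bin of Irs1 was chr1:81950001-81960000, 336 kb downstream, with 23, 9, 10 and 9, and that of Efna5 chr17:62500001-62510000, 376 kb downstream, with 19, 7, 10 and 7. Scaled to the median promoter, the TGFB1 counts were 47.9 for the Pcdh7 bin, which was above its count in Ctrl, 15.4 for the Irs1 bin and 11.97 for the Efna5 bin, which were below. The direction of the Pcdh7 bin thus turns with the scaling.

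On the side of the promoter, the contacts were divided by the distance of their near end from the TSS. With the near end 1 to 2.5 kb from the TSS, contacts per 1000000 pairs had a log2 ratio of TGFB1 to Ctrl of -1.08 at Irs1 (201 and 68 contacts), -0.84 at Pcdh7 (502 and 201) and -0.93 at Efna5 (352 and 132). With the near end within 1 kb it was -0.63 at Irs1 (441 and 204), -0.99 at Pcdh7 (189 and 68) and -0.74 at Efna5 (293 and 126). At 2.5 to 5 kb it was -0.96, -0.51 and -0.73, and at 5 to 10 kb -0.38, -0.10 and -0.23. The median active promoter had -0.48 within 1 kb, -0.26 at 1 to 2.5 kb, -0.08 at 2.5 to 5 kb and -0.06 at 5 to 10 kb. Relative to that median, the log2 ratio within 1 kb was -0.15 (-0.39 to 0.10) at Irs1, -0.51 (-0.93 to -0.10) at Pcdh7 and -0.25 (-0.56 to 0.05) at Efna5. The intervals of these promoters lay below the median at 1 to 2.5 kb and at 2.5 to 5 kb, and included it at 5 to 10 kb. The enriched bins of these promoters extend farther than the 1 kb of the median promoter, and the part of this in the ratios was not tested.

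Contacts came from 35 restriction fragments at Irs1, 40 at Pcdh7 and 44 at Efna5. The fragment with the most contacts held 11.4% of the Ctrl contacts of Irs1, 8.46% of those of Pcdh7 and 11.8% of those of Efna5.

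Pairs outside the range of 20 kb to 2 Mb had negative log2 ratios too, but with wide intervals, several of which include 0. Pairs with another chromosome had a log2 ratio of -0.55 (-1.04 to -0.08) at Irs1, with 146 ends in Ctrl and 51 in TGFB1. At Pcdh7 it was -0.42 (-0.82 to -0.03) and at Efna5 -0.15 (-0.58 to 0.26). Pairs under 20 kb apart had -0.29 (-0.62 to 0.04), -0.21 (-0.47 to 0.05) and -0.40 (-0.73 to -0.07).

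The other genes of the 3 families are given by their counts, with no test of the lists. Of the insulin and IGF signalling list, 21 of 32 genes had an active promoter, none of them at or beyond a log2 ratio of -0.5 or 0.5, which 0.194% and 0.631% of active promoters reached. The 20 other than Irs1 had a median of -0.03 (all active promoters have 0 by construction), and 12 of them were below the median. Irs2, the related adaptor, had 835 contacts in Ctrl and 444 in TGFB1 and a log2 ratio of -0.14 (-0.31 to 0.03). Igf1r, the IGF1 receptor, had 664 and 348 (-0.16, -0.35 to 0.03) and Foxo3, a transcription factor that AKT restrains, 1137 and 613 (-0.12, -0.26 to 0.03). Other members were above the median, up to Pik3cb, a catalytic subunit of PI3K, with 231 and 167 contacts (0.31, 0.01 to 0.60), Insr, the insulin receptor, with 254 and 172 (0.21, -0.08 to 0.50) and Pik3ca with 264 and 177 (0.20, -0.09 to 0.48).

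Of the ephrins and Eph receptors, 10 of 22 had an active promoter, and Efna5 was the only ephrin-A gene among them. The 9 others had a median of -0.01 with 5 of them below the median promoter, and ranged from -0.20 at Epha7 to 0.11 at Epha4, a receptor that binds ephrin-A5 among others. Efnb2, a transmembrane ephrin, had 603 contacts in Ctrl and 333 in TGFB1 and a log2 ratio of -0.08 (-0.28 to 0.11). Of the 11 non-clustered protocadherins, 3 had an active promoter. The 2 beside Pcdh7 were both below the median promoter, with a median of -0.07. They were Pcdh18, at -0.14 (-0.41 to 0.13) with 326 and 173 contacts, and Pcdh19, at 0.00 (-0.26 to 0.26) with 339 and 198. List members past 0.5 were all without an active promoter, namely Irs4 (0.79), Epha6 (0.69), Pcdh8 (0.68) and Epha8 (0.65), each with at most 96 contacts in Ctrl. Between the 2 libraries with miR-9 blocked, the exact binomial test called no member of the 3 lists that had an active promoter.

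The promoters whose pattern over the libraries was most like theirs were found by the distance between their log2 ratios of the other 3 libraries to Ctrl, among 6486 active promoters with at least 200 contacts in Ctrl. For Irs1 they were Adamts1, a secreted protease of the matrix (465, 209, 170 and 178 contacts, distance 0.126), Pcdh7 (0.127) and Sipa1l1 (0.149). For Pcdh7 they were Sipa1l1 (0.106), Irs1 (0.127) and Tdp2 (0.144). For Efna5 they were Faf2 (372, 154, 167 and 184 contacts, distance 0.0471), Ppp2r5e (0.0547) and Gas8 (0.0762). The distance uses the ratio that chose the 3 promoters and shares the Ctrl library among its ratios, so that nothing is read from the nearness of Irs1 and Pcdh7.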

How the data were processed

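The authors made the pairs with HiC-Pro at default settings, which mapped the reads of each HiChIP library to mm10, placed them on MboI restriction fragments and dropped duplicates. The HiC-Pro version is not given in the sources used here. They deposited 1 table of valid pairs for each library, with the position of both ends and, per end, the mapping quality score of the aligner. Lines of these tables were counted here with pandas 2.3.3, pyarrow 21.0.0 and numpy 2.4.6 under Python 3.11.15, tested with scipy 1.17.1 and plotted with matplotlib 3.10.9. Start sites came from GENCODE and promoter and microRNA sequences from RefSeq, both on GRCm38.

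Enriched regions were bins of 1 kb at an FDR of 0.01 whose pair ends reached 4 times both the mean of their chromosome and that of the 100 kb around them, with the 4 libraries pooled at equal depth. Ratios were divided by the median ratio of active promoters. Intervals are exact (Clopper-Pearson, 95%), and the exact two-sided binomial test was adjusted by Benjamini-Hochberg over 8242 promoters. With 1 library per condition they cover counting error only. The scripts were tested on simulated data.

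The members and lists were chosen with earlier results of these data known. Named were the 3 promoters, the 5 next in order, the 5 partner bins with the largest shortfall, the 3 most similar promoters and list members past a log2 ratio of 0.5 in either direction. Other list members, the far bins and the distance steps were chosen after their values were seen. Alternatives covered scaling, windows, distances, mapping quality, regions, start sites, thinning and repeated fragment pairs. The scaling to the top 10% of promoters was chosen after seeing the data. One member of the insulin and IGF list is counted but not reported here by name.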

Additional observations from a re-analysis of the deposited data

Results flagged for a closer look

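The log2 ratio of the TGFB1-treated to the untreated library had opposite signs without and with miR-9-LOF in 5 of the values at the 3 promoters. For contacts, the ratio with miR-9-LOF less the ratio without was 0.43 at Irs1 (-0.42 without and 0.01 with), 0.44 at Pcdh7 (-0.43 and 0.01) and 0.53 at Efna5 (-0.45 and 0.07). For pair ends it was 0.51 at Irs1 (-0.39 and 0.12) and 0.27 at Pcdh7 (-0.26 and 0.01). The opposite signs rest on the division by the median promoter. Without it the ratios with miR-9-LOF were -0.070, -0.073 and -0.011 for contacts at Irs1, Pcdh7 and Efna5 and -0.013 and -0.13 for ends at Irs1 and Pcdh7, so that none of the 5 had opposite signs. The differences between the ratios with and without miR-9-LOF were not tested. The promoters were chosen for their low ratio without miR-9-LOF, and each condition had 1 library. The ratios with miR-9-LOF all had intervals that include 0.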

How the results depend on the processing

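The log2 ratios of TGFB1 to Ctrl at the 3 promoters kept their sign under every alternative run. The promoters were chosen for low values of this contrast and the alternatives recount largely the same pairs. A kept sign is therefore a description and no independent support. Without division by the median promoter, contacts had -0.71 at Irs1, -0.72 at Pcdh7 and -0.75 at Efna5, and pair ends -0.75, -0.62 and -0.69. On that scale the partner classes had -0.74 (100 to 500 kb), -0.68 (over 500 kb), -0.69 (downstream), -0.54 (strong bins) and -0.85 (other bins) at Irs1, -0.69 (100 to 500 kb), -0.72 (downstream), -0.70 (own gene), -0.72 (strong bins) and -0.73 (other bins) at Pcdh7, and -0.85 (100 to 500 kb), -0.81 (downstream), -0.92 (strong bins) and -0.61 (other bins) at Efna5. Per pair with an end in a region, contacts had -0.22, -0.24 and -0.26. Ends within 1 kb had -0.22 at Irs1 and -0.15 at Efna5. For miR-9-LOF against Ctrl the values without the median were -1.25, -1.16 and -0.98, and for TGFB1+miR-9-LOF against TGFB1 -0.61, -0.51 and, with a changed sign, -0.24.

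Between the 2 miR-9-LOF libraries the members' ratios lay near 0 and changed sign with several settings. For contacts these were no median (-0.070, -0.073 and -0.011 in the order Irs1, Pcdh7, Efna5), a window of 25 kb (Pcdh7 -0.030), all coding promoters with at least 50 contacts (Irs1 -0.027, Pcdh7 -0.030), thinned libraries (Irs1 -0.041), pairs of 100 kb to 2 Mb (Irs1 -0.0031) and any distance over 20 kb (Efna5 -0.017). Per pair with an end in a region the contacts had 0.16, 0.16 and 0.22, and the Efna5 interval (0.02 to 0.42) then excludes 0 (exact binomial p = 0.0292, adjusted p = 0.187). For ends the settings were no median (Irs1 -0.013, Pcdh7 -0.13), ends within 2 kb (Efna5 0.035), ends within 1 kb (Pcdh7 -0.15, Efna5 0.21), pairs of at least 20 kb or 2 chromosomes (Efna5 0.079), the transcript start site (Efna5 0.021) and the top 10% of promoters (Efna5 0.054).

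The number of active promoters called for contacts, 3, became 69 without the median, 274 per pair with an end in a region, 52 with 25 kb, 30 with all coding promoters, 12 with the top 10%, 12 at any distance, 8 at a mapping quality of 30, and 0 with 5 kb, 8-fold regions, thinning, the transcript start site, 100 kb to 2 Mb or each fragment pair once. That for ends, 136, became 1182 without the median, 87 within 2 kb, 66 within 1 kb and 37 for long pairs. The cause was not tested. No paired analysis was possible because each condition had 1 library, and no replicate could be left out.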
